A study of Homo sapiens with 18 samples.

Results

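The mRNA levels of 10 genes were followed through the 6 groups of an RNA-seq experiment. They encode sensors of unfolded protein in the endoplasmic reticulum (ER), transcription factors made at its membrane, or the proteases that cut such factors. The genes were ERN1, EIF2AK3, ATF6, ATF6B, MBTPS1, MBTPS2, XBP1, CREB3, CREB3L1 and CREB3L2. They were found as the rows whose Ensembl identifier carries one of these symbols, 10 of the 57736 rows in the count table, and all 10 passed the filter on low counts that left 17317 genes for testing. All libraries are labelled as A1847, a human high-grade serous ovarian carcinoma line. The cells came in 3 genotypes, WT, koCARM1 and shXBP1, and each genotype was given 5 μg/ml tunicamycin (TM) for 8 h or the vehicle (ctr), with 3 libraries per group and 18 in all. In koCARM1 the gene of the arginine methyltransferase CARM1 was edited by CRISPR with 1 guide, and in shXBP1 a lentiviral short hairpin RNA was directed against XBP1. Whether koCARM1 is 1 clone is not stated. A scramble control shRNA is among the study's reagents, but that the WT cells of these libraries carried it is not said. Replicates are described in general terms as independent experiments, and the labels do not say how these libraries were grown, so that p-values measure the spread between these libraries. The 3′ ends of the mRNA were read as 75 nt single reads, which count a gene without telling its spliced forms apart.

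The ER holds 3 sensors of unfolded protein. IRE1α, the product of ERN1, is a kinase and endoribonuclease that cuts a short intron out of the XBP1 mRNA, so that the transcription factor XBP1s is made. PERK, the product of EIF2AK3, phosphorylates the translation factor eIF2α and thereby slows protein synthesis while ATF4 is made. ATF6 and its relative ATF6B travel to the Golgi under stress, where the site-1 protease (MBTPS1) and the site-2 protease (MBTPS2) cut them and free a transcription factor, and the CREB3 family factors are freed by the same kind of cutting. Tunicamycin blocks the attachment of N-linked sugars to new proteins in the ER and so makes unfolded protein accumulate. All of these steps act on RNA or protein, and the values below are levels of mRNA only.

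Because XBP1 is both a member of this group of genes and the substrate of another member, its short intron is shown, taken from GRCh37 (the build also called hg19) at chr22:29192086-29192171 on the minus strand. The capitals mark the 26 bases that the annotation gives as an intron of 1 transcript, at chr22:29192116-29192141, with 30 bases on each side.
XBP1 intron: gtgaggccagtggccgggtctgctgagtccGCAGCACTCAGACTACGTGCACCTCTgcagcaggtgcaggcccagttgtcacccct
The 26 bases lie within a coding exon of 3 other annotated transcripts, and dividing 26 by 3 leaves 2, so that their removal changes the reading frame. The 6 bases GCAGCA stand at the start of the annotated intron and again right after it, so a stretch of the same length placed up to 6 bases further on gives the same joined mRNA. The intron ends 1573 bases from the 3′ end of the gene, and counts from the 3′ ends of mRNA per gene do not separate the spliced from the unspliced form.

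Of the RefSeq promoter windows of the 10 genes, 2 held a motif of 8 or more fixed letters among those searched, and these 2 are shown because they hold it. All 10 genes rose with tunicamycin in WT cells, so the rise does not set these 2 apart, and a second annotated window of each of XBP1 and CREB3L2 held no motif. The windows come from a table on GRCh38 and were each found once in GRCh37, at the coordinates given. The first is 222 bases upstream of XBP1 at chr22:29196586-29196807 on the minus strand, with an ER stress response element (CCAAT, 9 bases of any kind, CCACG) in capitals.
XBP1 promoter: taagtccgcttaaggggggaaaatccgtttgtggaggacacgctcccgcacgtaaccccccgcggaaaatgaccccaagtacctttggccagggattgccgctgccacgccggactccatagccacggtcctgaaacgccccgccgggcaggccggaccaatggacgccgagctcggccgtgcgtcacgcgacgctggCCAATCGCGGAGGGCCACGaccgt
The 28 bases between this sequence and the RefSeq start are not shown. The element starts 52 bases and ends 34 bases before the RefSeq start, and 0.074% of the 35116 windows in the table held one in their 250 upstream bases. The second is the window upstream of CREB3L2 at chr7:137686833-137687082 on the minus strand, with a cAMP response element (TGACGTCA) in capitals.
CREB3L2 promoter: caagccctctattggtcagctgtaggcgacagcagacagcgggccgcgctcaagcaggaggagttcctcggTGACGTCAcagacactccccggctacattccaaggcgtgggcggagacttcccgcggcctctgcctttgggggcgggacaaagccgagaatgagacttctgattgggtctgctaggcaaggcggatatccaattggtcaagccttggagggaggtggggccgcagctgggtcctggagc
This element lies 179 to 172 bases before the start, and 1.65% of windows held one. All motifs were searched on both strands. A plain CCAAT box, which is also the first part of the ER stress response element, was found in the windows of ERN1, EIF2AK3, ATF6B, XBP1 and CREB3L2, against 32.0% of all windows. The elements ATTGGNCCACG (0.0513% of windows), TGACGTGG (0.612%) and TGATGNAA (3.14%) were in none of the members' windows, which says only that these letters are not there.

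Levels are given as CPM, the counts divided by each library's total after TMM correction over all libraries, and differences as log2 fold changes with their standard error (SE) from edgeR's quasi-likelihood test. A gene was called at a Benjamini-Hochberg adjusted p under 0.05 over the 17317 genes tested. Library totals were 9367462 to 13917212 counts. The koCARM1 libraries stood apart from all others: the correlation of log2 CPM over genes was 0.986 to 0.989 between replicates and 0.961 to 0.987 between WT and shXBP1 libraries, but 0.730 to 0.775 between koCARM1 and any other library. Of the 8 markers of serous carcinoma fixed for this check, the WT and shXBP1 libraries held 0 to 2 counts of PAX8, 0 to 2 of WT1, 0 or 1 of MSLN, 0 of MUC16, 0 to 13 of the keratin KRT7 and 22 to 52 of EPCAM, while the keratins KRT8 and KRT18 were plainly detected, at 58.4 ± 3.75 and 260 ± 7.09 CPM (mean ± SD, n = 3) in vehicle-treated WT cells. The koCARM1 libraries held 465 to 840 counts of PAX8, 61 to 153 of MSLN, 157 to 266 of EPCAM and 3576 to 5166 of KRT7, with KRT8 at 734.5 ± 24.5 and KRT18 at 1482 ± 14.1 CPM under vehicle, but only 3 to 13 counts of WT1 and 0 of MUC16. Of the 7 serous markers tested, 7 were higher in koCARM1 than in WT under both conditions (37.5% of all genes under vehicle and 38.4% under tunicamycin). The 8 markers summed to 310 to 332 CPM in WT, 2686 to 2779 in koCARM1 and 131 to 144.0 in shXBP1 under vehicle, and to 460.1 to 486, 2264 to 2367 and 199 to 214 under tunicamycin. The 3 fibroblast markers did not move together, since COL3A1 was at 2220 to 3403 counts in WT and 0 to 10 in koCARM1, COL1A1 at 169 to 259 and 3996 to 6247 under vehicle, and PDGFRB at 54 to 72 and 42 to 80 under vehicle. They summed to 234 to 249 CPM in WT, 463 to 501 in koCARM1 and 197 to 207 in shXBP1 under vehicle, and to 195 to 209, 186 to 212 and 146 to 149 under tunicamycin. The 3 leukocyte markers summed to 0.176 to 1.63 CPM in WT and shXBP1 and 5.0 to 7.15 in koCARM1, with CD3E at 0, and the 2 endothelium markers to 0 to 0.318. Whether the koCARM1 libraries come from the same line as the others was not tested. What CARM1 contributes to a difference between koCARM1 and WT cannot be told apart from what else differs between these cells, nor, in bulk RNA, can a mixture of cells from a change within each cell. CARM1 itself stood at 44.4% of its WT level under vehicle and 52.8% under tunicamycin in koCARM1, which checks nothing, since a 3′ tag does not read the edited site. XBP1 in shXBP1 stood at 55% and 47.8% of WT.

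With tunicamycin, all 10 genes rose in WT cells, by 0.29 to 2.23 on the log2 scale with a median of 1.37, where 22% of all tested genes were called higher and 19.9% lower and the median over all genes was 0. In shXBP1 cells 7 of the 10 rose and 0 fell (19.2% and 19% of all genes), with a median of 1.25. In koCARM1 cells 6 rose and 1, CREB3L1, fell (20.6% and 18.8% of all genes), with a median of 0.29. In WT, EIF2AK3, ATF6, CREB3L2 and XBP1 had the largest estimates, and ATF6B and the 2 proteases the smallest.

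Between genotypes the counts read differently against their background. In koCARM1 against WT, 5 of the 10 were higher and 4 lower under vehicle, where 37.5% and 36.9% of all genes were called, and 3 were higher and 5 lower under tunicamycin, where 38.4% and 36.8% were called. In shXBP1 against WT under vehicle, 0 were higher and 1, XBP1 itself, was lower (2.07% and 3.03% of all genes). Under tunicamycin 0 were higher and 5, ATF6, XBP1, CREB3, CREB3L1 and CREB3L2, were lower (6.99% and 8.55%), and the estimates of all 10 lay below 0. The response to tunicamycin itself was compared between genotypes as an interaction term. Against WT it was larger in koCARM1 for 1 gene, XBP1, and smaller for 4, ATF6, CREB3, CREB3L1 and CREB3L2 (10.5% and 12.4% of all genes), and in shXBP1 larger for 0 and smaller for 1, ATF6 (0.364% and 1.67%). The same WT libraries served the comparisons with both genotypes.

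The libraries of the 2 conditions did not overlap for 10 of the 10 genes in WT, all of them higher with tunicamycin, where 49.8% of all tested genes did not overlap and 25.1% were higher without overlap. In koCARM1 they did not overlap for 8 (48.4% of all genes) and in shXBP1 for 7 (47.4%). Between koCARM1 and WT they did not overlap for 9 under vehicle (75.9%) and 9 under tunicamycin (77.1%), and between shXBP1 and WT for 3 (23.6%) and 7 (31.5%).

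**Figure D1:**
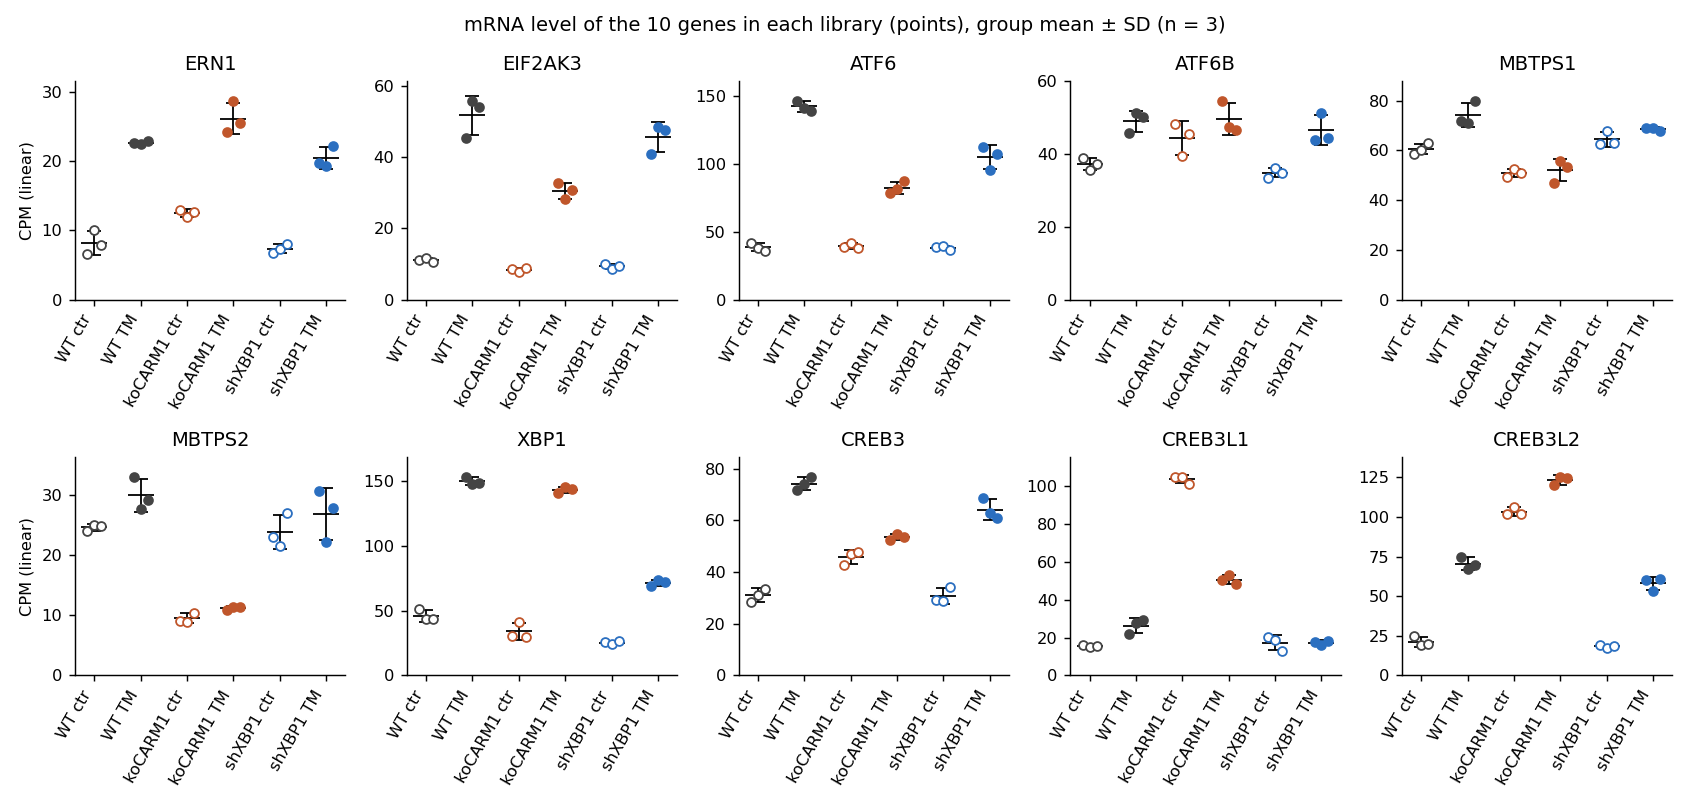
Level of each of the 10 genes in CPM (linear axis from 0, its own scale in each panel) in the 18 libraries, by group; open circles are vehicle and filled circles tunicamycin libraries, and bars are the group mean ± SD (n = 3). The tunicamycin libraries of WT all lie above its vehicle libraries for each of the 10 genes, as for 25.1% of all tested genes, and CREB3L1 and CREB3L2 sit near 103 CPM in vehicle-treated koCARM1 cells against 15.6 ± 0.346 and 21.2 ± 2.94 in WT.

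ERN1 encodes IRE1α, the sensor that splices XBP1 mRNA. Its level in the WT libraries was 6.65, 10.1 and 7.83 CPM under vehicle and 22.5, 22.4 and 22.9 under tunicamycin. In koCARM1 it was 12.9, 11.9 and 12.7 and 24.2, 28.6 and 25.5 CPM. In shXBP1 it was 6.78, 7.31 and 8.01 and 19.8, 19.2 and 22.2 CPM. All tunicamycin libraries lay above all vehicle libraries, whatever the genotype. ERN1 rose by 1.47 ± 0.13 (SE) on the log2 scale in WT, a 2.78-fold change (edgeR, adjusted p = 1.54e-07), by 1.10 ± 0.099 in koCARM1 and by 1.46 ± 0.12 in shXBP1. The responses were not called different from that of WT in either genotype, with differences of -0.39 ± 0.17 in koCARM1 (edgeR, adjusted p = 0.105) and -0.0094 ± 0.18 in shXBP1, and the first was called without WT ctr replicate 2 (edgeR, -0.50, adjusted p = 0.0296). Under vehicle koCARM1 held 1.48 times the WT level (edgeR, adjusted p = 0.00308). Under tunicamycin the difference of 0.22 ± 0.088 passed the test (edgeR, adjusted p = 0.0381), but not with DESeq2 (adjusted p = 0.0644), with all libraries in one fit (0.0769) or without any one of 5 of the 6 libraries (edgeR, adjusted p of 0.0566 to 0.192). Neither difference between shXBP1 and WT was called.

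EIF2AK3 encodes PERK, the sensor kinase of the translational branch, and had the largest estimate of the 10 genes in WT and in shXBP1. The WT libraries held 11.1, 11.6 and 10.7 CPM under vehicle and 45.4, 55.8 and 54 under tunicamycin. The koCARM1 libraries held 8.62, 7.8 and 8.93 and 32.8, 28.2 and 30.7. The shXBP1 libraries held 9.94, 8.66 and 9.55 and 41, 48.5 and 47.5. Every tunicamycin library stood above every vehicle library, and the koCARM1 libraries were the lowest of the tunicamycin libraries. The step was 2.23 ± 0.10 on the log2 scale in WT, or 4.69-fold (edgeR, adjusted p = 3.48e-11), 1.89 ± 0.10 in koCARM1 and 2.27 ± 0.10 in shXBP1. EIF2AK3 was lower in koCARM1 than in WT, with a log2 difference of -0.44 ± 0.13 under vehicle (edgeR, adjusted p = 0.00505) and of -0.75 ± 0.088 under tunicamycin (edgeR, adjusted p = 1.57e-06), with no overlap of the libraries in either condition. The difference of the responses, -0.36 ± 0.15, was not called (edgeR, adjusted p = 0.098). In shXBP1 the estimates against WT were -0.25 ± 0.12 and -0.18 ± 0.087, neither of them called, and without WT TM replicate 1 the second one was (edgeR, -0.27, adjusted p = 0.0384).

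ATF6 encodes the sensor that becomes a transcription factor after it is cut in the Golgi, and its response was smaller than in WT in both modified genotypes. In WT it stood at 41.9, 38.2 and 36 CPM under vehicle and 146, 142 and 139 under tunicamycin. In koCARM1 it stood at 38.9, 42.1 and 37.8 and 78.7, 81.8 and 87.4. In shXBP1 it stood at 39, 39.6 and 36.8 and 113, 95.7 and 107. The vehicle libraries of the 3 genotypes overlapped, while the tunicamycin libraries formed 3 ranges without overlap, koCARM1 lowest and WT highest. The change was 1.89 ± 0.069 on the log2 scale in WT, or 3.71-fold (edgeR, adjusted p = 2.12e-12), 1.09 ± 0.061 or 2.14-fold in koCARM1, and 1.44 ± 0.07 or 2.72-fold in shXBP1. Against the response of WT this was a difference of -0.82 ± 0.092 in koCARM1 (edgeR, adjusted p = 1.65e-06) and -0.44 ± 0.097 in shXBP1 (edgeR, adjusted p = 0.018). The second of these calls rested on single libraries, since without WT TM replicate 1, shXBP1 ctr replicate 2 or shXBP1 TM replicate 2 it was -0.40, -0.42 or -0.38 with edgeR adjusted p-values of 0.0537, 0.0625 and 0.0543. Under tunicamycin alone ATF6 was lower than in WT, with a difference of -0.78 ± 0.053 in koCARM1 (edgeR, adjusted p = 3.84e-09) and of -0.43 ± 0.062 in shXBP1 (edgeR, adjusted p = 0.000193).

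ATF6B encodes the second ATF6 protein, which is cut in the same way. It ranged from 35.7 to 38.8 CPM in WT under vehicle and from 45.7 to 51.3 under tunicamycin, a rise of 0.41 ± 0.077 on the log2 scale or 1.33-fold (edgeR, adjusted p = 0.000374). The rise in shXBP1 was 0.41 ± 0.077 (edgeR, adjusted p = 0.000557). In koCARM1 the libraries of the 2 conditions overlapped and the estimate of 0.19 ± 0.079 did not pass the test (edgeR, adjusted p = 0.0574), although it did under other filters on low counts, the lowest adjusted p being 0.0219 with no filter. Neither response was called different from that of WT. In vehicle-treated koCARM1 cells ATF6B was higher than in WT by 0.21 ± 0.083 (edgeR, adjusted p = 0.0343), a call that was lost without WT ctr replicate 2, koCARM1 ctr replicate 1 or koCARM1 ctr replicate 3 (edgeR, adjusted p of 0.0700, 0.204 and 0.0958). The last 71 bases of ATF6B overlap TNXB on the same strand, and TNXB stood at 11 to 62 counts per library. TNXB rose with tunicamycin in WT (1.17 ± 0.33, edgeR, adjusted p = 0.00823), as ATF6B did. It was not called in shXBP1 (0.54 ± 0.32) or koCARM1 (-0.045 ± 0.19). In koCARM1 against WT it was higher under vehicle (1.64 ± 0.29, edgeR, adjusted p = 0.00011), with the same sign as ATF6B. Under tunicamycin it was not called (0.45 ± 0.22). What the overlap adds to the ATF6B counts was not tested.

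The 2 proteases that cut ATF6 and the CREB3 factors moved little with tunicamycin. MBTPS1, which encodes the site-1 protease, stood at 58.6, 60.1 and 62.9 CPM in WT under vehicle and 71.9, 70.8 and 79.8 under tunicamycin. MBTPS2, the gene of the site-2 protease, stood at 24, 25 and 24.8 and 33, 27.6 and 29.1 CPM. The libraries of the 2 conditions did not overlap for either gene. The steps were 0.31 ± 0.069 for MBTPS1 (edgeR, adjusted p = 0.00183) and 0.29 ± 0.091 for MBTPS2 (edgeR, adjusted p = 0.0163), and the second was lost without WT TM replicate 1 (edgeR, 0.20, adjusted p = 0.118). In koCARM1 and shXBP1 neither gene passed the test, with estimates of 0.07 ± 0.067 and 0.081 ± 0.058 for MBTPS1 and 0.29 ± 0.12 and 0.17 ± 0.12 for MBTPS2, of which that of MBTPS2 in koCARM1 was called without koCARM1 ctr replicate 3 (edgeR, 0.35, adjusted p = 0.0404). The response of MBTPS1 in koCARM1 differed from that of WT by -0.26 ± 0.099 and was not called (edgeR, adjusted p = 0.0693), but was with all libraries in one fit or without koCARM1 TM replicate 2 (edgeR, adjusted p of 0.0445 and 0.0417).

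MBTPS2 differed more between genotypes than with treatment. The koCARM1 libraries held 9.09, 8.89 and 10.4 CPM under vehicle and 10.9, 11.3 and 11.4 under tunicamycin, less than any WT or shXBP1 library. They stood at 37% of WT under vehicle, a log2 difference of -1.43 ± 0.10 (edgeR, adjusted p = 4.74e-09), and at 37.7% under tunicamycin. The response was not called different, at -0.021 ± 0.14. MBTPS2 contains the intronless gene YY2 (2754 bases, same strand), which held 25 to 84 counts per library and was not called between koCARM1 and WT, with estimates of -0.18 ± 0.21 and 0.003 ± 0.19. MBTPS1 was lower in koCARM1 as well, at -0.29 ± 0.063 against WT under vehicle (edgeR, adjusted p = 0.000614) and -0.50 ± 0.073 under tunicamycin (edgeR, adjusted p = 1.74e-05).

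**Figure D2:**
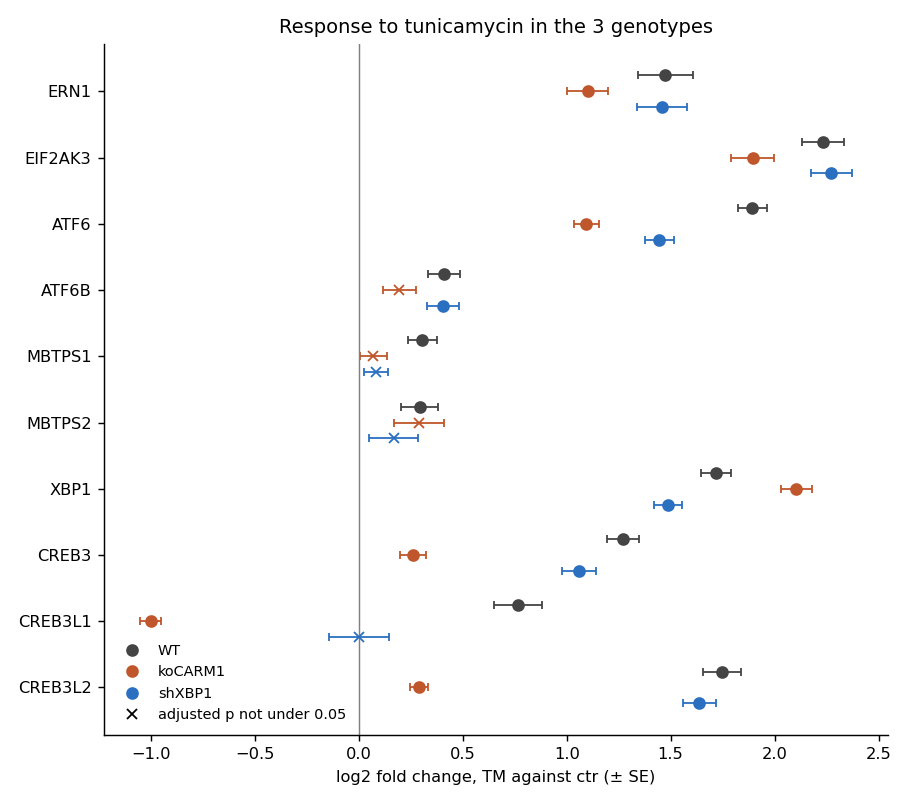
Log2 fold change of each gene with tunicamycin against vehicle, ± SE, in WT, koCARM1 and shXBP1 cells (n = 3 against 3 libraries each); a cross is an adjusted p not under 0.05. The 10 WT estimates lie between 0.29 and 2.23, and CREB3L1 in koCARM1 is the only called value below 0.

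XBP1 encodes the transcription factor that IRE1α activates by splicing, and its promoter window carries the ER stress response element shown above. The WT libraries held 51.1, 43.2 and 43.5 CPM under vehicle and 153, 148 and 148 under tunicamycin. In koCARM1 they held 30.4, 41.4 and 30 and 140.5, 145 and 144. The shXBP1 libraries held 25.5, 24.1 and 26.5 and 69, 73.7 and 72.1. Every genotype had its tunicamycin libraries above its vehicle libraries, and the shXBP1 libraries were the lowest of each condition. XBP1 rose by 1.72 ± 0.071 on the log2 scale in WT, or 3.29-fold (edgeR, adjusted p = 1.1e-11), by 2.10 ± 0.075 or 4.3-fold in koCARM1, and by 1.49 ± 0.068 or 2.8-fold in shXBP1.

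The knockdown of XBP1 was partial, and XBP1 kept rising in it. Against WT, the level in shXBP1 differed by -0.86 ± 0.086 under vehicle (edgeR, adjusted p = 2.54e-05) and by -1.06 ± 0.054 under tunicamycin (edgeR, adjusted p = 5.43e-09), and tunicamycin-treated shXBP1 cells held more XBP1 mRNA than vehicle-treated WT cells, 71.6 ± 2.35 against 45.9 ± 4.5 CPM (mean ± SD, n = 3). The response was not called different from that of WT, at -0.22 ± 0.097 (edgeR, adjusted p = 0.308). In koCARM1, XBP1 was lower than in WT under vehicle, at -0.47 ± 0.11 (edgeR, adjusted p = 0.00133), and not called under tunicamycin, with an estimate of -0.06 ± 0.045 although the 3 libraries of each genotype did not overlap. The response was larger than in WT by 0.37 ± 0.12 (edgeR, adjusted p = 0.0341), and this call was lost without koCARM1 ctr replicate 1 or 3 or koCARM1 TM replicate 2 or 3 (edgeR, 0.28 to 0.36, adjusted p of 0.0609 to 0.137).

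CREB3 encodes the founding member of the family of ER-bound factors that the site-1 and site-2 proteases free. The WT libraries held 28.2, 31.2 and 33.5 CPM under vehicle and 71.8, 73.9 and 76.9 under tunicamycin. Those of koCARM1 held 42.9, 47.1 and 47.8 and 52.4, 54.5 and 53.5. Those of shXBP1 held 29, 28.7 and 34.3 and 68.8, 62.8 and 60.8. The koCARM1 libraries lay between the vehicle and the tunicamycin libraries of WT in both conditions. CREB3 rose by 1.27 ± 0.077 on the log2 scale in WT, or 2.41-fold (edgeR, adjusted p = 1.28e-09), by 1.06 ± 0.081 in shXBP1 and by 0.26 ± 0.063, or 1.2-fold, in koCARM1 (edgeR, adjusted p = 0.00202). The response in koCARM1 was smaller than in WT, with a difference of -1.03 ± 0.098 (edgeR, adjusted p = 1.69e-07). Against WT the gene was higher in koCARM1 under vehicle (0.52 ± 0.082) and lower under tunicamycin (-0.47 ± 0.058). In shXBP1 it was lower under tunicamycin, at -0.21 ± 0.066 (edgeR, adjusted p = 0.0429), which was lost with DESeq2 (adjusted p = 0.0607) and without any one of 4 libraries (edgeR, adjusted p of 0.0731 to 0.184). The last 134 bases of CREB3 overlap the 3′ end of GBA2 on the opposite strand, and whether strand was used in counting is not stated. GBA2 was not called with tunicamycin in WT (0.19 ± 0.092) or shXBP1 (-0.065 ± 0.086) and rose in koCARM1 (0.50 ± 0.10), where CREB3 rose too. In koCARM1 against WT it was lower under vehicle (-0.88 ± 0.10), opposite in sign to CREB3, and lower under tunicamycin (-0.54 ± 0.088), with the same sign as CREB3.

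CREB3L1 encodes OASIS, a member of the family known for collagen secretion in bone and fibroblasts, and it was the one of the 10 genes that rose in one genotype and fell in another. The WT libraries held 15.9, 15.2 and 15.7 CPM under vehicle and 21.6, 27.7 and 29.5 under tunicamycin. The koCARM1 libraries held 104, 105 and 101 and 50.2, 52.9 and 48.2. The shXBP1 libraries held 20.4, 18.5 and 12.8 and 17.4, 16.1 and 18.4. It was thus low and rising in WT, high and falling in koCARM1, and low with overlapping conditions in shXBP1. The change was 0.76 ± 0.12 on the log2 scale in WT, or 1.7-fold (edgeR, adjusted p = 4.96e-05), -1.0 ± 0.052 in koCARM1 (edgeR, adjusted p = 5.88e-13) and -0.0002 ± 0.14 in shXBP1. The difference of the responses was -1.79 ± 0.12 in koCARM1 (edgeR, adjusted p = 2.1e-09). In shXBP1 it was -0.76 ± 0.20 and missed the threshold (edgeR, adjusted p = 0.057), while DESeq2 called it (-0.75, adjusted p = 0.0129), as did edgeR with no filter, with at least 10 counts in every library, with all libraries in one fit, without WT TM replicate 1 and without shXBP1 ctr replicate 3 (adjusted p of 0.000701 to 0.0467). The vehicle level in koCARM1 was 6.42 times that of WT (log2 2.68 ± 0.067; edgeR, adjusted p = 9.91e-15) and the tunicamycin level 1.92 times. Under tunicamycin, shXBP1 cells held 65.8% of the WT level (edgeR, adjusted p = 0.00229).

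CREB3L2 encodes BBF2H7, the family member known for cartilage and the secretory pathway. The WT libraries held 24.6, 19.4 and 19.6 CPM under vehicle and 75, 67 and 69.4 under tunicamycin. In koCARM1 the values were 102, 106 and 102 and 119.8, 125 and 124. In shXBP1 the values were 19.4, 17.6 and 18.7 and 60, 53.6 and 60.7. Vehicle-treated koCARM1 cells already stood above tunicamycin-treated WT cells. CREB3L2 rose by 1.75 ± 0.093 on the log2 scale in WT, or 3.36-fold (edgeR, adjusted p = 2.54e-10), by 1.64 ± 0.08 in shXBP1 and by 0.29 ± 0.044, or 1.22-fold, in koCARM1 (edgeR, adjusted p = 1.26e-05). The response in koCARM1 was smaller, with a difference of -1.48 ± 0.10 (edgeR, adjusted p = 1.76e-09), and that in shXBP1 was not called different, at -0.10 ± 0.13. Against WT the level in koCARM1 was 4.74-fold under vehicle (edgeR, adjusted p = 1.07e-12) and 1.76-fold under tunicamycin. In shXBP1 it was lower under tunicamycin, at -0.28 ± 0.07 (edgeR, adjusted p = 0.0133), a call that was lost without shXBP1 TM replicate 2 (edgeR, adjusted p = 0.0737).

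**Figure D3:**
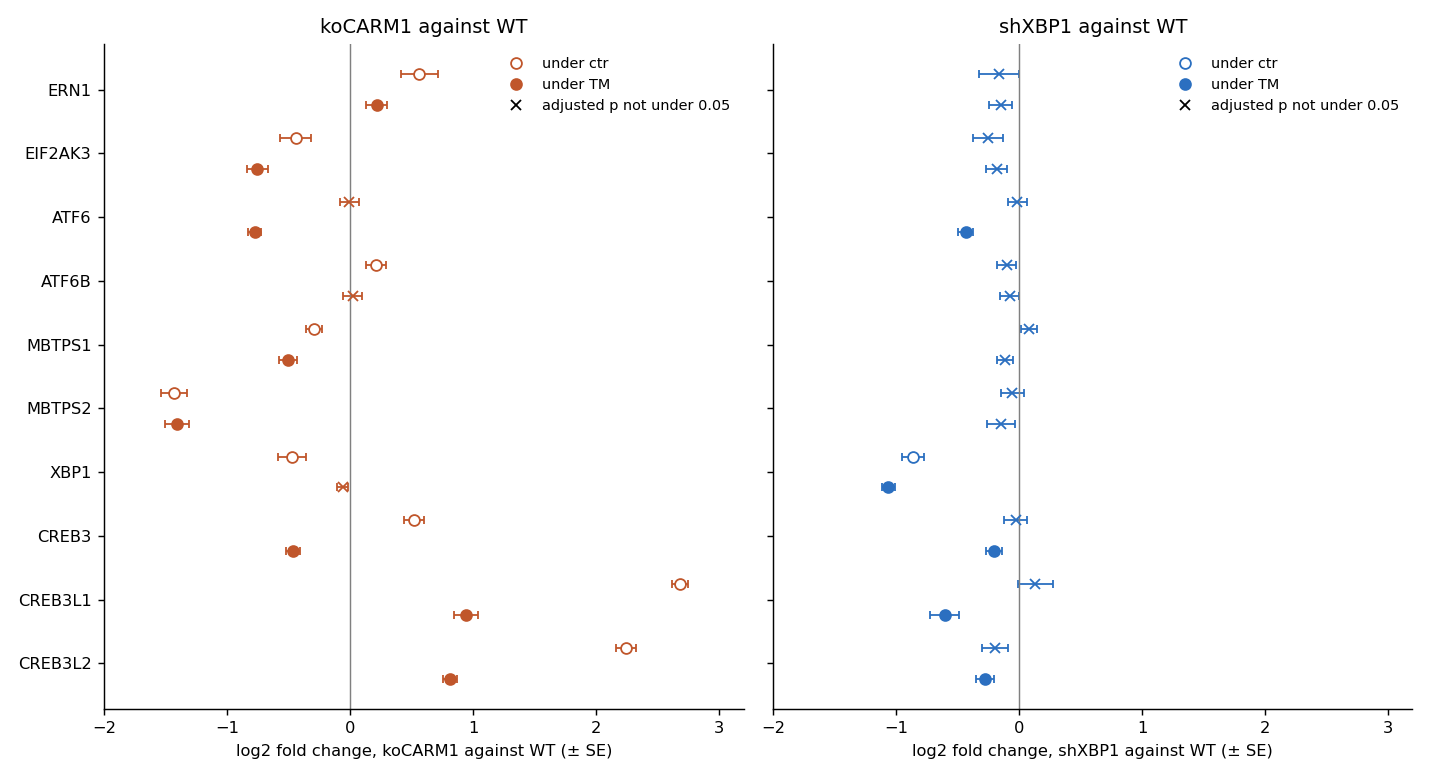
Log2 fold change of each gene in koCARM1 (left) and shXBP1 (right) against WT, ± SE, under vehicle (open circles) and tunicamycin (filled circles), with 3 against 3 libraries; a cross is an adjusted p not under 0.05. In koCARM1 the values run from -1.43 (MBTPS2) to 2.68 (CREB3L1) under vehicle; in shXBP1 the 10 estimates under tunicamycin all lie below 0, from -1.06 (XBP1) to -0.075 (ATF6B).

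**Figure D4:**
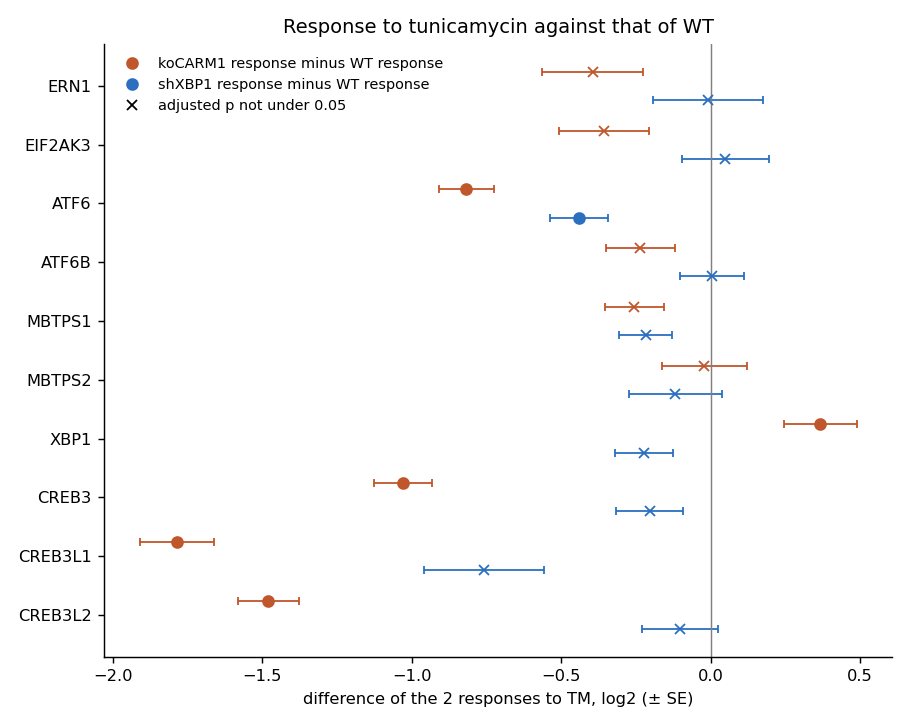
Response to tunicamycin in koCARM1 or shXBP1 minus the response in WT, on the log2 scale ± SE (fit over 4 groups of 3 libraries); a cross is an adjusted p not under 0.05. In koCARM1 the values of CREB3L1, CREB3L2, CREB3 and ATF6 lie from -1.79 to -0.82 and XBP1 at 0.37, and in shXBP1 the one called value is ATF6 at -0.44.

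The nearest relatives of these genes did not all move with them. CREB3L4, a further family member of the secretory pathway, stood at 60 to 74 counts per library in vehicle-treated WT cells and 217 to 272 with tunicamycin. It rose by 2.08 ± 0.13 in WT (edgeR, adjusted p = 1.9e-09), 1.61 ± 0.20 in koCARM1 and 1.65 ± 0.15 in shXBP1. It was lower in koCARM1 than in WT, at -0.98 ± 0.23 under vehicle and -1.42 ± 0.12 under tunicamycin, opposite in sign to CREB3L1 and CREB3L2. CREB3L3, known from liver, was listed with 0 to 3 counts and did not pass the filter. ERN2, the form of IRE1 known from mucosal epithelium, was at 5 to 13 counts in every library and was called in none of the 9 comparisons (edgeR). Of the other eIF2α kinases, EIF2AK2, which senses double-stranded RNA, fell with tunicamycin in WT (-0.27 ± 0.056, edgeR, adjusted p = 0.000882) and so did EIF2AK4, which senses amino acid shortage (-0.34 ± 0.065, edgeR, adjusted p = 0.000459). Both fell in koCARM1 and shXBP1 too, so that EIF2AK3 was the one kinase of the 4 that rose. EIF2AK1, the heme-regulated kinase, was called in 1 comparison, lower in koCARM1 under vehicle at -0.20 ± 0.058 (edgeR, adjusted p = 0.00507). EIF2AK4 was lower in koCARM1 under both conditions, at -1.06 and -1.02, and so was EIF2AK2, at -0.63 and -0.56.

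Genes that work with the sensors were read from lists whose members were known from earlier results of these data, and their counts are a description. Of 12 partners of IRE1α and genes of XBP1 mRNA ligation, 9 rose and 2 fell with tunicamycin in WT (22% and 19.9% of all genes). Their median was 0.28, against 0 over all genes. The largest changes were in SEL1L (3.63 ± 0.065) and SYVN1 (2.91 ± 0.069), the adaptor and the ubiquitin ligase of ER-associated degradation, and in MAP3K5 (-1.67 ± 0.27), the kinase ASK1, which fell. In the tRNA ligase complex that joins the XBP1 exons, RTCB, the ligase itself, rose by 0.25 ± 0.065, DDX1 by 0.32 ± 0.061, C14orf166 by 0.43 ± 0.06, C2orf49 by 0.51 ± 0.087 and its cofactor ZBTB8OS by 0.23 ± 0.072, while FAM98B was at -0.081 ± 0.077 and not called. In koCARM1 6 rose and 0 fell (20.6% and 18.8% of all genes), and in shXBP1 7 rose and 2 fell (19.2% and 19%). The response of SEL1L was smaller than in WT in both, at -1.11 ± 0.084 in koCARM1 (edgeR, adjusted p = 6.92e-09) and -0.55 ± 0.095 in shXBP1 (edgeR, adjusted p = 0.00255).

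Of 8 genes of the PERK branch, 7 rose and 0 fell in WT (22% and 19.9% of all genes), with a median of 2.25. TRIB3 (4.73 ± 0.082), a pseudokinase that ATF4 induces, DDIT3 (4.61 ± 0.084), the factor CHOP, and PPP1R15A (3.38 ± 0.12), the phosphatase subunit GADD34, made the largest steps, while EIF2S1, the gene of eIF2α itself, was at 0.076 ± 0.055 and not called. In koCARM1 7 rose and 0 fell (20.6% and 18.8% of all genes), with a median of 1.60. In shXBP1 it was 7 and 0 (19.2% and 19%), with a median of 2.02. Against WT under tunicamycin, 5 of the 8 were higher and 2 lower in koCARM1, and 0 were higher and 2 lower in shXBP1, where the shares of all genes were 38.4% and 36.8%, and 6.99% and 8.55%. Those 2 were PPP1R15A (-0.34) and DNAJC3 (-0.40), an ER co-chaperone that inhibits eIF2α kinases.

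Of 9 genes of ATF6 transport and of other substrates of the 2 proteases, 4 rose and 3 fell in WT (22% and 19.9% of all genes). Their median was 0.13. PDIA5 (1.39 ± 0.087) and TXNDC12 (0.68 ± 0.062), ER oxidoreductases that act on the disulfides of ATF6, rose, and INSIG1 (-1.52 ± 0.11), which holds the sterol sensor SCAP in the ER, fell. In koCARM1 3 rose and 3 fell (20.6% and 18.8% of all genes), and in shXBP1 4 and 2 (19.2% and 19%). The response of TXNDC12 was smaller than in WT in koCARM1, at -0.74 ± 0.09 (edgeR, adjusted p = 4.15e-06), and in shXBP1, at -0.38 ± 0.081 (edgeR, adjusted p = 0.0127).

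All 13 listed targets of XBP1s and ATF6 rose in each genotype, with medians of 2.42 in WT, 2.67 in koCARM1 and 2.22 in shXBP1. Of all genes, 22%, 20.6% and 19.2% were called higher with tunicamycin in these genotypes. DNAJB9 (3.82 ± 0.09 in WT), an ER co-chaperone, HERPUD1 (3.61 ± 0.074), a membrane protein of ER-associated degradation, and HSPA5 (3.08 ± 0.044), the chaperone BiP, made the largest steps. Compared with WT, the response was larger in koCARM1 for 6 of the 13 and smaller for 3, and in shXBP1 larger for 0 and smaller for 4 (10.5% and 12.4%, and 0.364% and 1.67%, of all genes). HSPA5 was among those with a larger response in koCARM1 (0.67 ± 0.044; edgeR, adjusted p = 1.06e-09), opposite to the smaller response of ATF6. Under tunicamycin, 7 of the 13 were lower in shXBP1 than in WT and 0 higher (8.55% and 6.99% of all genes).

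Of 5 reported targets of CREB3 family factors, 3 rose and 2 fell in WT, 3 and 2 in shXBP1, and 4 and 1 in koCARM1 (22% and 19.9%, 19.2% and 19%, and 20.6% and 18.8% of all genes). SEC24D, a coat protein of vesicles that leave the ER, rose by 4.10 ± 0.09 in WT, ARF4, a small GTPase of the Golgi, by 1.26 ± 0.055, and the collagen gene COL1A1 fell by 0.71 ± 0.14. All 5 were lower in shXBP1 than in WT under tunicamycin (8.55% of all genes), from -1.19 for SEC24D to -0.28 for COL1A2. In koCARM1 the response of SEC24D was smaller, at -1.65 ± 0.13 against that of WT (edgeR, adjusted p = 1.97e-08) and so was that of ARF4, at -0.55 ± 0.062 (edgeR, adjusted p = 1.77e-06). COL1A1, which was at 4.95 against WT under vehicle in koCARM1, fell there by 1.27 ± 0.043 with tunicamycin (edgeR, adjusted p = 2.6e-16). The other collagen gene, COL1A2, went the other way, at 10211 to 12954 counts per library in vehicle-treated WT cells and 0 to 7 in koCARM1. It rose in koCARM1 to 5 to 34 counts with tunicamycin (edgeR, adjusted p = 0.00847). These koCARM1 counts are low and the ranges of the 2 conditions overlap, and the gene is among the 4 counted as rising there.

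**Figure D5:**
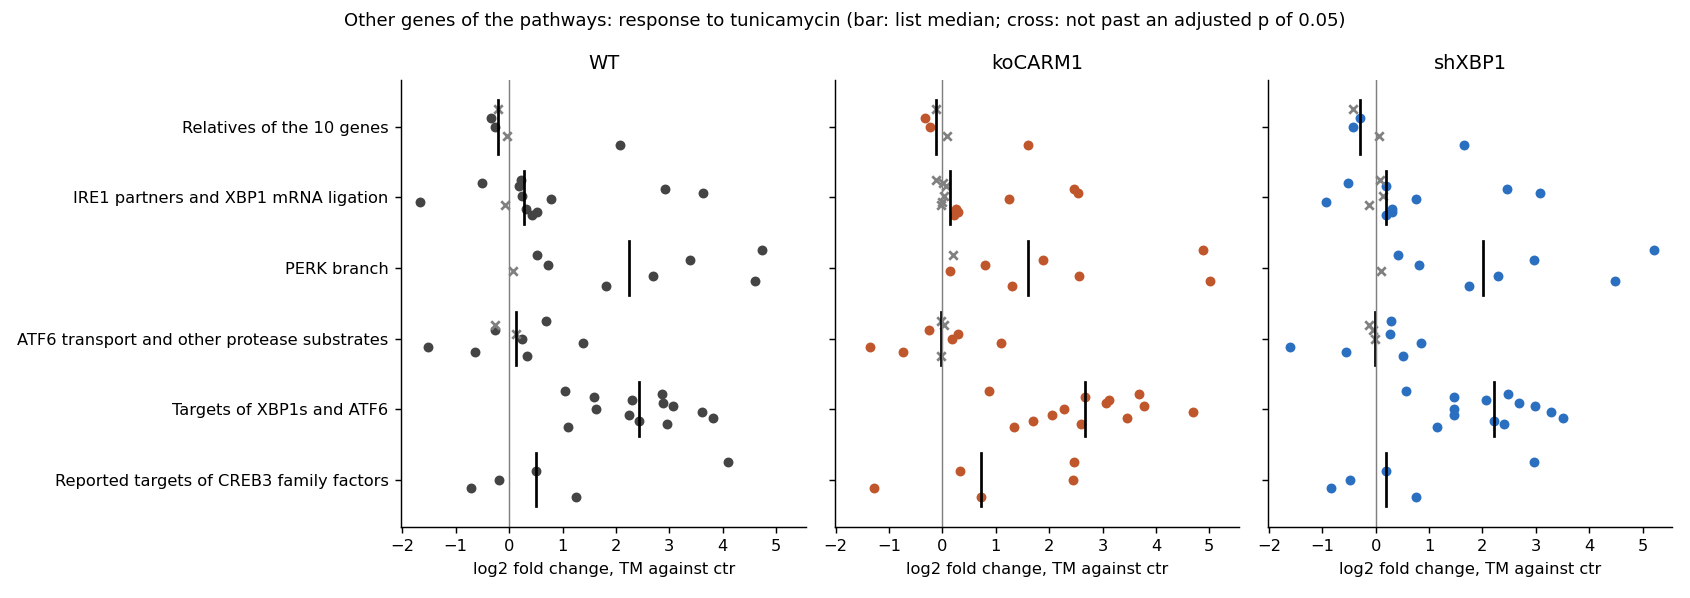
Log2 fold change with tunicamycin against vehicle of the other genes of these pathways in WT, koCARM1 and shXBP1; each point is a gene, black bars are list medians, and grey crosses did not pass an adjusted p of 0.05. The 13 targets of XBP1s and ATF6 all lie above 0 in each panel, with medians of 2.42, 2.67 and 2.22, while the median of the IRE1α partners is 0.28 or less.

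The genes whose log2 CPM followed a sensor most closely were sought by Pearson's r over the 18 libraries, among the 9523 genes whose log2 CPM averaged 3 or more. For ERN1, EIF2AK3, ATF6 and XBP1 every tunicamycin library stood above every vehicle library. Such an r takes in that step along with differences between genotypes, and is given without a p. For ERN1 the closest genes were CEP57 (r = 0.983), ADM2 (0.978) and CARS1 (0.976). For EIF2AK3 they were DNAJB9 (0.993), SLC33A1 (0.992) and CHAC1 (0.991). For ATF6 they were TMED7 (0.988), RCN1 (0.986) and DNAJC10 (0.985), and XBP1 had its closest genes at lower values, ENSG00000233137 (0.955), LZTFL1 (0.955) and SELENOS (0.953).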

How the data were processed

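RNA from A1847 cells was sequenced in 18 libraries, 3 for each of 6 groups, grouped by the genotype and treatment in the labels. Reads were aligned to hg19 with bowtie2 by the authors. The deposited values are expected counts that RSEM gave for each Ensembl gene, not normalized and in whole numbers. RSEM was version 1.2.3 in the submitters' processing notes, while the study's methods name another version. The Ensembl release and any use of strand are not given in the sources used here. Totals were 9367462 to 13917212, and precision was taken from the spread between replicates (chi-square per degree of freedom of 1.84 to 6.89 between pairs).

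Genes were filtered with filterByExpr (minimum count 10, all libraries) in edgeR 4.0.16 under R 4.3.3, normalized by TMM, and tested with the quasi-likelihood F test on the groups compared, with Benjamini-Hochberg adjustment over 17317 genes at 0.05. The SE is the size of the log2 fold change over the square root of F. Log values used a prior count of 2. The 9 comparisons were tunicamycin against vehicle in each genotype, each modified genotype against WT under each condition, and both interactions with tunicamycin. With 3 against 3 libraries no exact permutation test can pass 0.05, and none is given. Alternatives were DESeq2 1.42.0, its size factors, other filters, a replicate block, one fit over all libraries and each library left out, and a filter set without the koCARM1 libraries was added after seeing the data. The members, lists and tests were chosen with earlier results of these data known. The text names all 10 members, their relatives, CARM1, the 3 list genes with the largest called change with tunicamycin in WT, and the 3 genes most like each of ERN1, EIF2AK3, ATF6 and XBP1; the tRNA ligase subunits, EIF2S1, DNAJC3, COL1A2 and the overlapping genes TNXB, YY2 and GBA2 were named after their values were seen. Other annotated genes also overlap members. EIF2AK3 overlaps 2 long noncoding RNA genes on the opposite strand (18870 and 4283 bases), and CREB3L2 overlaps 1 (4619 bases). On the same strand, ATF6 overlaps a transcribed pseudogene (1364 bases) and MBTPS2 a Y RNA gene (102 bases). The levels of these genes are not given here, and what they add to the members' counts was not tested. PECAM1 was not matched to a row. Sequences are from GRCh37 and from RefSeq promoter windows (GRCh38). The scripts were tested on simulated data, where the share of false calls was above the threshold of 0.05 with both edgeR and DESeq2.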

Additional observations from a re-analysis of the deposited data

Results flagged for a closer look

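For 6 values the response to tunicamycin differed from that of WT by the test of the difference itself (edgeR interaction term, 4 groups of 3 libraries, adjusted over 17317 genes). In koCARM1 these were ATF6 (-0.82 on the log2 scale), XBP1 (0.37), CREB3 (-1.03), CREB3L1 (-1.79) and CREB3L2 (-1.48). In shXBP1 it was ATF6 (-0.44). The koCARM1 libraries held PAX8, KRT7 and MSLN, which were at or near 0 in WT, and the part of this in the 5 koCARM1 values was not tested. The calls for XBP1 in koCARM1 and for ATF6 in shXBP1 were each lost when single libraries were left out, with adjusted p-values of 0.0609 to 0.137 and 0.0537 to 0.0625. Groups of 3 libraries were too small to be tested for a single outlying library.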

How the results depend on the processing

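Of the 90 fold changes of members, 84 to 88 kept direction and call under each of the 6 other ways of processing that used all libraries of the comparison, and the value of every called member kept its sign. With DESeq2, with no filter, with 10 or more counts required in every library or with all libraries in one fit, 2 members rather than 1 were called in the interaction of shXBP1 with tunicamycin, ATF6 and CREB3L1. Genes called in shXBP1 against WT under vehicle numbered 883, 1378 with no filter and 1420 with all libraries in one fit, and in the shXBP1 interaction 353 and, with no filter, 732. Leaving out 1 library gave 435 to 1234 genes (435 to 574 without WT ctr replicate 1 or 2 or shXBP1 ctr replicate 2 or 3) and, under tunicamycin, 1523 to 2426 against 2691 (1523 without WT TM replicate 3 and 1743 without shXBP1 TM replicate 3), with 3 to 6 members against 5 (3 without shXBP1 TM replicate 2) and 0 to 2 in the shXBP1 interaction (0 without shXBP1 ctr replicate 2 or shXBP1 TM replicate 2). Fewer libraries entered these fits, yet without WT ctr replicate 3 the count under vehicle rose from 883 to 1234. The chi-square per degree of freedom was 5.705 and 5.753 between this library and WT ctr replicates 1 and 2. Between replicates 1 and 2 it was 2.367, and over all groups the pairs ran from 1.84 to 6.89. Whether this library is an outlier was not tested. The balance of calls over all genes in the interaction of koCARM1 with tunicamycin also varied. There were 1814 higher and 2151 lower in the main fit, 2375 and 1745 with no filter, and 2281 and 1710 with at least 10 counts. Without any 1 WT library there were 2085 to 2324 higher and 1467 to 1759 lower. Without any 1 koCARM1 library more were lower than higher.

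Values near 0 that were not called changed sign. CREB3L1 with tunicamycin in shXBP1 was -0.0002, and 0.0030, 0.0044, 0.0029 and 0.0093 with DESeq2, its size factors, 10 or more counts and one fit, 0.0017 with the filter set without koCARM1, and -0.18 to 0.14 without 1 library. ATF6 in koCARM1 against WT under vehicle was -0.0070, and 0.031, 0.032, 0.016, 0.048 and 0.039 with DESeq2, its size factors, no filter, 10 or more counts and one fit, and -0.054 to 0.067 without 1 library. The interaction of MBTPS2 with koCARM1 was 0.049 and 0.040 with no filter and at least 10 counts (-0.064 to 0.13 without 1 library), and that of ERN1 with shXBP1 0.025 and 0.0036 with no filter and one fit (-0.18 to 0.11). Without 1 library, ATF6B in koCARM1 under tunicamycin ran from -0.052 to 0.062, and in shXBP1 under vehicle ERN1 ran from -0.29 to 0.014, ATF6 from -0.063 to 0.046, MBTPS2 from -0.15 to 0.018, CREB3 from -0.11 to 0.040 and CREB3L1 from -0.0018 to 0.31. The shXBP1 interactions of EIF2AK3 and ATF6B ran from -0.019 to 0.13 and -0.070 to 0.048. The cause was not tested.

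Replicate numbers are shared between groups, but the deviations of same-numbered libraries correlated at -0.048 to 0.039 over 21 pairs, so they were not taken as paired. With the replicate block 8 rather than 7 members were called with tunicamycin in koCARM1 (ATF6B added), 7 rather than 8 in koCARM1 against WT under tunicamycin (ERN1 lost), and CREB3L1 in shXBP1 was 0.012; the counts of the other 7 comparisons were equal. The filter set without the koCARM1 libraries changed no count of members. At 5 to 13 counts per library, ERN2 had SEs of 0.47 to 0.67, so that depth limits what can be said of it.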
